A study of Rattus norvegicus with 12 samples.

Results

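Cd34 and 8 other genes used as markers of quiescent, adventitial fibroblasts were followed in rat atrial fibroblasts. The genes were Cd34, Pi16, Dpp4, Thy1, Dpt, Cd248, Clec3b, Gsn and Mfap5, taken by symbol from the deposited tables, where they are listed as gene-Cd34 and so on. All 9 were found among 22850 features, of which 18385 had counts in any library, and all 9 passed the filter on low counts in every comparison. The set was chosen by the higher levels of Cd34, and of several others, with HNG than with AngII alone, so the values in that contrast are a description, and the calls counted there support nothing.

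The cells were primary fibroblasts from the atria of 1- to 3-day-old Sprague-Dawley rats, separated from other cells by differential adhesion, which enriches fibroblasts without sorting them. Every group was kept with 1 μmol/L AngII (angiotensin II, a peptide hormone that activates fibroblasts) for 48 h in medium with 2% FBS. The AngII group received nothing else, the AngII+HNG group also received 10 μmol/L HNG, an analogue of the mitochondrial peptide humanin, and the AngII+MOTS-c group 5 μmol/L MOTS-c, another peptide encoded in mitochondrial DNA. Each peptide was added 1 h before AngII. Each of the 3 groups had 4 libraries, and cells without AngII were not analysed here, so the level of these genes before AngII cannot be given.

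Quiescent fibroblasts of the outer vessel wall and of the tissue interstitium carry surface proteins such as CD34 and THY1 and secrete PI16, dermatopontin and microfibril proteins. When fibroblasts become activated they gain contractile and matrix-crosslinking genes, and some of the resting markers are known to decline. CD34 is a sialomucin of the cell surface that is also made by endothelial and blood progenitor cells, and markers of endothelial cells and leukocytes are given beside it.

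Between 27960586 and 38322354 reads were counted on genes per library. Levels are given as CPM (read counts divided by the TMM-scaled library size) when 1 gene is compared across libraries, and as FPKM, which also divides by gene length, when genes are compared with each other. At this depth 3 counts, the upper limit for a gene with no count, equalled 0.0783 to 0.107 CPM, a limit set by counting error alone. The study's methods describe the 4 libraries of a group as biological replicates, and the labels do not tie them to cultures or litters, so the p-values measure the spread between these libraries. In each group the library names of replicates 2 and 3 share a number, so they may come from 1 preparation, and the n of 4 in SDs and tests may then stand for 3. The defining fibroblast gene Col1a1 was at 3792 to 4429 FPKM, but defining cardiomyocyte genes were also high, with Tnnt2 (cardiac troponin T) at 666 to 921 FPKM and Myh6 (atrial myosin heavy chain) at 263 to 409 FPKM.

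The markers spanned a wide range of levels per length. Thy1, a GPI-anchored surface glycoprotein, was highest with 76.4 ± 8.60 FPKM (mean ± SD, n = 12 libraries), followed by the collagen-binding matrix protein gene Dpt with 57.2 ± 11.1 and the actin-severing protein gene Gsn with 50.6 ± 2.90 FPKM. Cd34 had 21.1 ± 8.19 FPKM, a mean and spread that include the difference between groups, with 16.3 in AngII, 32.0 in AngII+HNG and 15.0 in AngII+MOTS-c. Below it on average came Mfap5, a microfibril protein, with 13.9 ± 2.25, Cd248 (endosialin) with 11.4 ± 1.49, and Clec3b (tetranectin, a plasminogen-binding lectin) with 10.5 ± 1.16 FPKM. The ranges of Dpt (40.3 to 78.0 FPKM) and Gsn (45.8 to 55.7) overlapped, as did those of Mfap5 (11.3 to 17.7), Cd248 (9.62 to 13.8) and Clec3b (9.0 to 12.8). Over the 12 libraries these ranges gave no order, but within single groups some did not overlap. In AngII, Mfap5 (12.6 to 15.2 FPKM) lay above Cd248 (9.98 to 11.8) and Clec3b (9.96 to 10.4). In AngII+MOTS-c it lay just above Clec3b (11.35 against 11.32 FPKM at the nearest). In AngII+HNG, Dpt (56.8 to 78.0 FPKM) lay above Gsn (50.6 to 55.7). The ranges of Thy1 (63.0 to 90.3 FPKM) and Dpt also overlapped, but Thy1 lay above Dpt in each of the 12 libraries, as Gsn did above Cd34 (13.5 to 34.2). The ranges of Cd34 and Mfap5 overlapped in AngII and in AngII+MOTS-c but not in AngII+HNG. Pi16, a secreted peptidase inhibitor of the CAP family, had 3.74 ± 1.03 FPKM and stood apart from all others. Dpp4, a dipeptidyl peptidase of the cell surface, was lowest with 0.210 ± 0.0476 FPKM, from 26 to 62 counts per library.

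**Figure D1:**
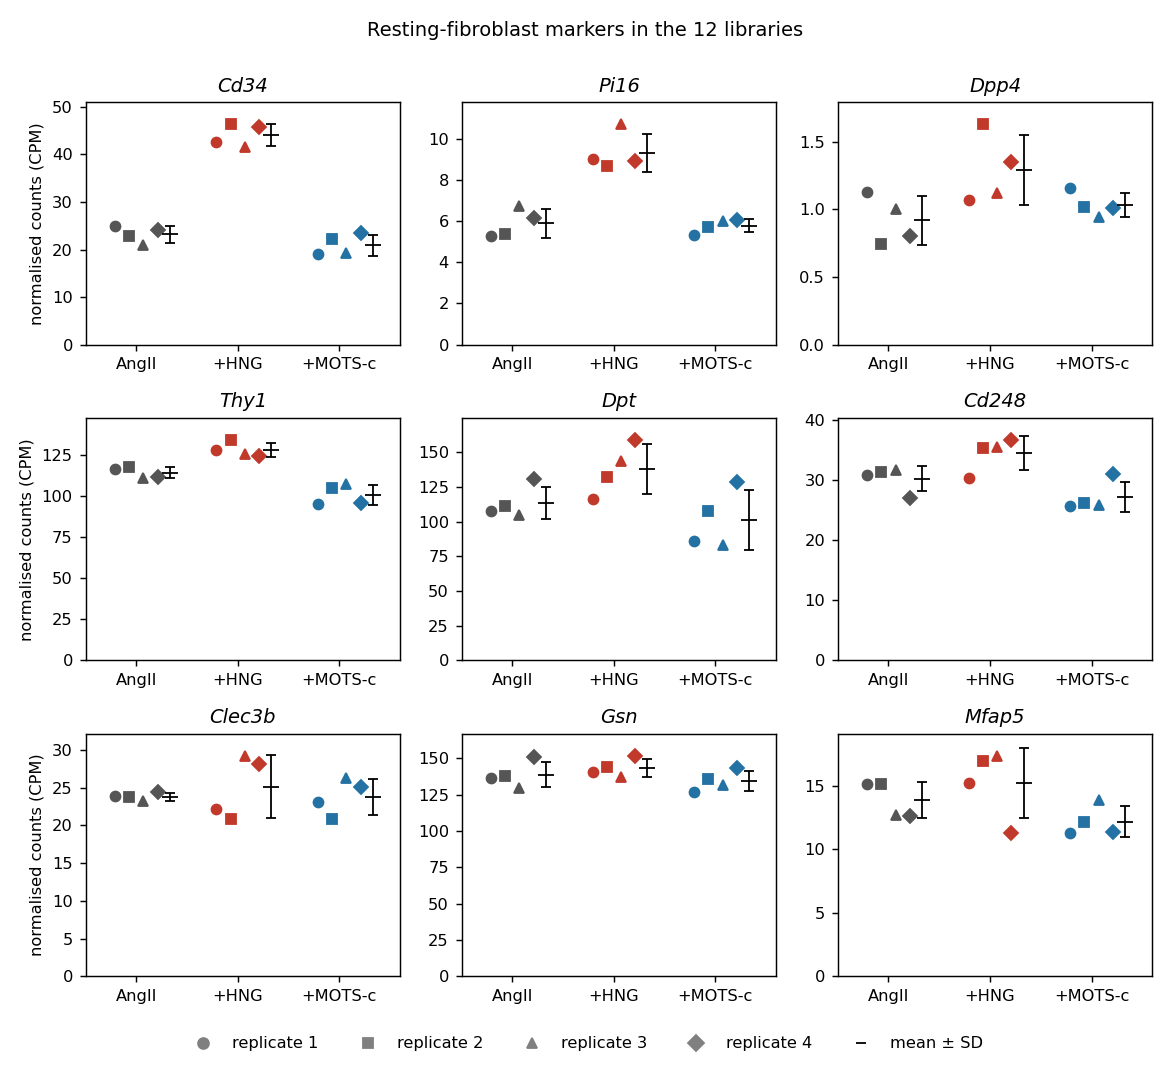
Normalised counts (CPM, linear axis from 0) of the 9 markers in the 12 libraries, by group (grey AngII, red AngII+HNG, blue AngII+MOTS-c) and replicate (marker shape), with the mean ± SD of 4 libraries to the right of each group. The 4 AngII+HNG libraries sit between 41.6 and 46.3 CPM for Cd34, above all 8 other libraries, whereas Gsn and Clec3b overlap in all 3 groups.

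The 250 bases before the start of 3 of the markers are shown because Cd34 and Pi16 had the largest differences with HNG among the 9, and Gsn one of the smallest. They are RefSeq sequences of build GRCr8, 5′ to 3′ on the strand of the gene, and 6 of the 9 markers had an entry. The build used for the deposited counts is not given in the sources used here. Capitals mark GC boxes (GGGCGG) and CACCC elements, searched on both strands.
Cd34, chr13:109008536-109008785, + strand: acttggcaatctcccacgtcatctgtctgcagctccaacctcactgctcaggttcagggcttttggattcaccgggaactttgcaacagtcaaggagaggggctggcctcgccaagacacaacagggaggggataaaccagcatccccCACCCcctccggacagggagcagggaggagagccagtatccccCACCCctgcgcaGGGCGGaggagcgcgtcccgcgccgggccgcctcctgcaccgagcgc
Pi16, chr20:7377703-7377952, + strand: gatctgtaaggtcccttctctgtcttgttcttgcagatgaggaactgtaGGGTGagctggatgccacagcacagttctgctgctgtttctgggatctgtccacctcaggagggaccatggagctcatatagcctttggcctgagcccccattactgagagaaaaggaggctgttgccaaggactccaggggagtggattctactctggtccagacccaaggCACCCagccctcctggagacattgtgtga
Gsn, chr3:39008682-39008931, + strand: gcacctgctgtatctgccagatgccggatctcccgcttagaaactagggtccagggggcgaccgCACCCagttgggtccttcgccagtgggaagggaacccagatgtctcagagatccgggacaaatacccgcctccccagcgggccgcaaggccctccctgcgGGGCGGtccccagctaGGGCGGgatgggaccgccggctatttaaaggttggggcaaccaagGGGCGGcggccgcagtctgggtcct

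The Cd34 window held 1 GC box, 47 to 42 bases before the start, and 2 CACCC elements at 102 to 98 and 59 to 55 bases. The Pi16 window held 2 CACCC elements, the first of them on the opposite strand, at 201 to 197 and 29 to 25 bases, and no GC box. The Gsn window held 3 GC boxes, at 86 to 81, 70 to 65 and 25 to 20 bases, and 1 CACCC element at 186 to 182 bases. The Cd34 and Gsn windows were GC-rich, with 64.8% and 66.4% G and C against a median of 51.2% over 33469 promoter windows, and the Pi16 window had 54.4%. Of the 6 markers with an entry, 5 held CACCC, as did 49.2% of all windows, and 2 held GGGCGG, as did 30.5%. CCAAT was in 3 of the 6 (34.0% of all windows) and TATAAA in 1, Dpt (12.9%). TGANTCA, the letters bound by AP-1, was in none of the 6 (6.34% of all windows), nor was CATTCC, the letters bound by TEAD factors (12.1%), nor a CArG box (1.5%). The markers had no arrangement of these letters in common in this window.

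Cd34 had the largest difference of the 9 between AngII+HNG and AngII. Its normalised counts were 25.0, 22.8, 21.0 and 24.1 CPM in AngII replicates 1 to 4 and 42.6, 46.3, 41.6 and 45.8 CPM in the AngII+HNG replicates. No AngII+HNG library came near the AngII range. The mean was 1.90-fold higher, a log2 fold change of 0.93 with a standard error of 0.062, and stood at rank 65 of the 14524 genes tested when ordered from the most increased.

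Pi16 was next. It had 5.29, 5.37, 6.75 and 6.14 CPM in AngII and 9.02, 8.66, 10.7 and 8.90 CPM in AngII+HNG, 1.59-fold higher (log2 0.67, standard error 0.11). The lowest AngII+HNG library lay above the highest AngII library. Per length, Pi16 had 3.14 ± 0.411 FPKM in AngII and 5.04 ± 0.563 FPKM in AngII+HNG (mean ± SD, n = 4), far below the 16.3 ± 1.07 and 32.0 ± 1.84 FPKM of Cd34.

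Among the other surface proteins, Thy1 had 117, 118, 111 and 112 CPM in AngII and 128, 134, 126 and 125 CPM in AngII+HNG. The groups did not overlap, but the difference was small, 1.12-fold (log2 0.17, standard error 0.039). Cd248 had 30.9, 31.3, 31.8 and 27.1 CPM in AngII and 30.5, 35.4, 35.6 and 36.7 CPM in AngII+HNG, where replicate 1 lay within the AngII range (log2 0.20, standard error 0.069). Dpp4 had 1.13, 0.742, 1.00 and 0.801 CPM in AngII against 1.06, 1.63, 1.12 and 1.35 CPM in AngII+HNG. The Dpp4 groups overlapped, and its log2 difference of 0.50 had the largest standard error of the 9, 0.22. On the log2(FPKM + 1) scale, which understates low genes, it was 0.091.

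The remaining genes, Dpt, Mfap5, Clec3b and Gsn, differed in their spread between libraries. Dpt, dermatopontin, had 108, 111, 105 and 131 CPM in AngII and 116, 133, 144 and 159 CPM in AngII+HNG (log2 0.29, standard error 0.088), with replicate 4 highest in both groups. Mfap5 had 15.1, 15.1, 12.7 and 12.6 CPM in AngII and 15.2, 16.9, 17.3 and 11.3 CPM in AngII+HNG (log2 0.14, standard error 0.12). Its lowest library of the 2 groups was an HNG library, and without 1 library its difference lay between 0.064 and 0.26. Clec3b had 23.8, 23.7, 23.1 and 24.3 CPM in AngII and 22.2, 20.9, 29.2 and 28.1 CPM in AngII+HNG, below the AngII range in replicates 1 and 2 and above it in replicates 3 and 4 (log2 0.083, standard error 0.096). Gsn had the smallest difference in the fit of all 8 libraries, with 137, 138, 130 and 151 CPM in AngII and 140, 144, 137 and 152 CPM in AngII+HNG (log2 0.051, standard error 0.050). Without AngII+HNG replicate 3 the difference of Clec3b was smaller, at 0.0013 against 0.070 for Gsn.

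The means of all 9 markers were thus higher with HNG, with a median log2 difference of 0.20 against 0.0043 over all genes tested. An adjusted p below 0.05 (edgeR's quasi-likelihood test, adjusted over all genes) was reached by 3 of the 9, Cd34, Pi16 and Thy1, and 3.4% of all genes tested were called higher in this comparison. The same 3 had groups that did not overlap, as had 6.87% of all genes in this direction. Because this contrast chose the genes, nothing is read from these counts. The differences of Cd34, Pi16 and Thy1 between libraries of the same number were 0.77 to 1.02, 0.53 to 0.76 and 0.13 to 0.19 on the log2 scale. Those of Dpp4, Cd248, Clec3b and Mfap5 had both signs.

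Markers of other cells also differed between these groups, where 3.4% of all genes tested were called higher and 2.58% lower. In bulk samples, fewer cells of a type and less RNA per cell cannot be told apart. The 15 endothelial genes found summed to 147 to 160.4 CPM in AngII and 159.9 to 168 CPM in AngII+HNG, so the ranges just overlapped. Of the 15 tested, 4 rose, Kdr, Tie1, Tek and Egfl7 (1.31- to 1.35-fold), while Flt1 (named after its values were seen) fell to 0.81-fold. Kdr and Egfl7 lost their calls, leaving 2, without AngII replicate 1 or 2 or AngII+HNG replicate 2 or 4. The defining endothelial genes Pecam1 and Cdh5 were at 2.62 to 3.43 and 2.94 to 4.87 FPKM, below the 13.5 to 34.2 FPKM of Cd34 itself. The 15 macrophage and leukocyte genes summed to 307 to 372 CPM in AngII and 408 to 533 CPM in AngII+HNG, and 4 of 14 tested rose, led by the lysozyme gene Lyz2 (1.68-fold, edgeR adjusted p = 0.000262), followed by Cd68 (1.61), Mrc1 (1.47) and Ptprc (1.29). With a replicate or library number block 7 of the 14 rose, and 6 without AngII replicate 4. Ptprc lost its call, leaving 3, without AngII replicate 1, 2 or 3 or AngII+HNG replicate 4, with replicates 2 and 3 summed and with log2(FPKM + 0.1). The 12 smooth muscle and pericyte genes summed to 2845 to 3058 CPM in AngII and 2472 to 2744 CPM in AngII+HNG, and 4 of 11 tested fell, Cnn1, Mcam, Notch3 and Myh11 (0.75- to 0.79-fold).

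The cardiomyocyte sum overlapped, 6986 to 7929 CPM in AngII against 7310 to 8552 CPM in AngII+HNG, and 1 of 12 rose, Tnni3 (1.35-fold). Tnni3 was not called with log2(FPKM + 0.1), with replicates 2 and 3 summed, or without AngII replicate 1, 2 or 3, whereas the replicate block called 3 genes, Tnni3, Ttn and Myh6, and DESeq2 the first 2 of them. Of 12 epicardial genes 1 rose, Upk1b (1.76-fold), as did 1 of 12 fibroblast identity genes, the transcription factor Tcf21 (1.21-fold). With a replicate block these became 2 and 3, adding Aldh1a2 to the former and Dcn and Postn to the latter, and Dcn was also called without AngII replicate 4. None of the 6 Schwann cell genes tested passed by edgeR, with 0 at an unadjusted p below 0.05 and 0 by DESeq2 or limma after adjustment. Of the T lymphocyte list, Cd3d and Cd3e had no count in any library and only 1 gene could be tested. The part of these cells in the Cd34 and Pi16 differences was not tested.

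Other genes of the resting state, from a list of 30 companions of which 27 were tested, moved in both directions with HNG. The list was put together with earlier results of these data known, so its balance is a description. Of the 27, 6 rose and 2 fell by edgeR, 8 in all (5.98% of all genes tested were called in either direction), and their median log2 difference was 0.14 against 0.0043 over all genes. The summed level was 4472 to 4532 CPM in AngII and 4871 to 5015 CPM in AngII+HNG.

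Scara5, a ferritin receptor of mesenchymal cells, had the smallest adjusted p of the list, with 58.9 ± 2.33 CPM in AngII and 81.4 ± 5.94 CPM in AngII+HNG (mean ± SD, n = 4 each, log2 0.47, standard error 0.055, edgeR adjusted p = 0.000488). Its relative Scara3 rose from 3.38 ± 0.439 to 4.92 ± 0.362 CPM (log2 0.54, standard error 0.12, edgeR adjusted p = 0.0191). The groups did not overlap for either gene. The matrix protein gene Fbln1, fibulin, rose from 61.9 ± 7.15 to 84.9 ± 12.7 CPM (edgeR adjusted p = 0.0146). Scara3 lost its call in the fit of all 12 libraries, and without AngII replicate 1 or 2 or AngII+HNG replicate 2 or 4. Fbln1 lost its call without AngII replicate 1 or 2, with robust estimation and with log2(FPKM + 0.1). Gfpt2, an enzyme of hexosamine synthesis, rose from 38.0 ± 4.03 to 50.7 ± 3.94 CPM (edgeR adjusted p = 0.00646). The other genes that rose were both transcription factors, Tcf21, a regulator of the fibroblast lineage, and Klf4 (1.29-fold, named after its values were seen). The transcription factor gene Osr1 (0.78-fold) and the actin-binding protein gene Limch1 (0.86-fold), also named after their values were seen, fell. Limch1 lost its call without any 1 library other than AngII+HNG replicate 1, with replicates 2 and 3 summed and on both log2(FPKM) scales, and with log2(FPKM + 0.1) Osr1 lost its call as well. Other classical genes of these cells gave values that did not pass by edgeR, among them Pdgfra (log2 0.025), Dcn (0.29, called with a block), Col14a1 (0.10), Igfbp6 (-0.031) and C3 (0.13).

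The list of activated fibroblast and myofibroblast genes, put together in the same way, had the opposite balance. Of 29 tested, 12 fell and none rose by edgeR, or 14 and 1 (Postn, periostin) with a replicate or library number block, and none was called higher by DESeq2 or limma. At an unadjusted p below 0.05, 0 of the genes with higher means passed by edgeR, and 2 without AngII+HNG replicate 3. The background of genes called lower was 2.58%, and the median log2 difference of the list was -0.21 against 0.0043 over all genes. Itga11, a collagen-binding integrin chain, fell from 421 ± 27.3 to 290 ± 14.4 CPM (log2 -0.53, edgeR adjusted p = 0.000134), with no overlap of the groups. Cnn1, the contractile protein calponin, and Tnc, the matrix glycoprotein tenascin, had log2 differences of -0.41 and -0.40. Fibrillar collagens of the same list did not pass, with log2 differences of -0.041 for Col1a1, -0.025 for Col1a2 and 0.057 for Col3a1. Cnn1 is also on the smooth muscle list, whose fall is given above.

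**Figure D2:**
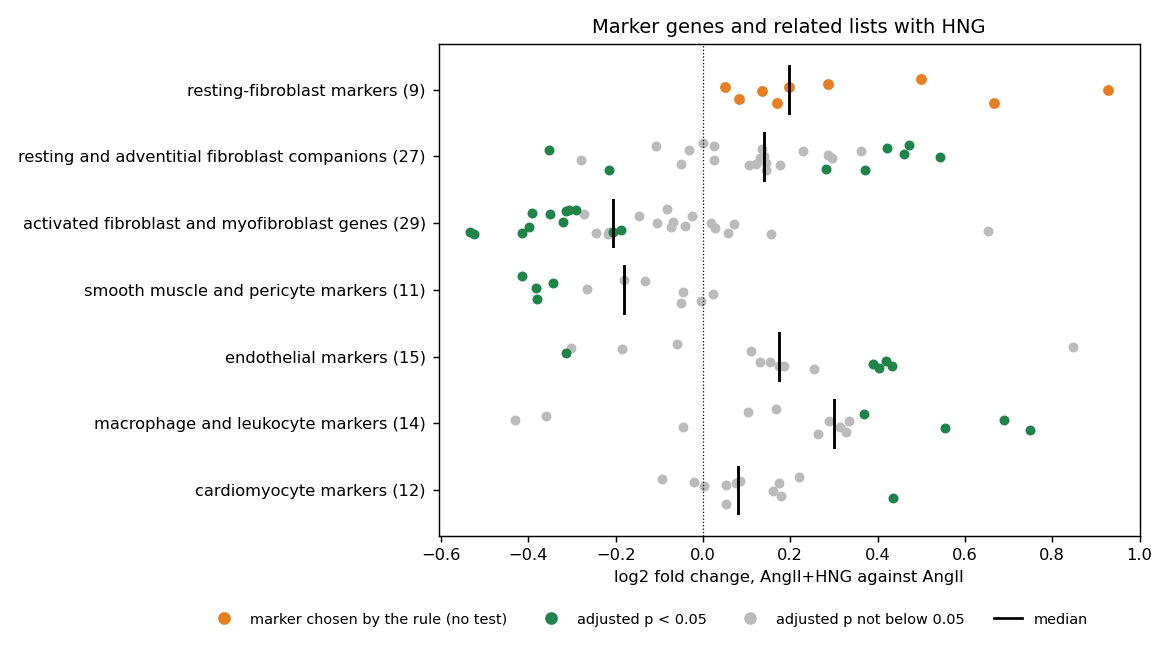
Log2 fold change of each tested gene (points) between AngII+HNG and AngII, by list (rows, number of genes tested in brackets), with the median of each list as a black bar; green points passed the adjusted threshold of 0.05, grey points did not, and orange points are the 9 markers, given without a call. Most companions lie right of 0 (median 0.14) and most activated fibroblast genes left of it (median -0.21).

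Relatives and binding partners of the 9 markers were taken as a further list, of which 33 genes were tested. With HNG, 6 rose and 3 fell by edgeR, 9 in all beside 5.98% of all genes, and the median log2 difference was -0.029. Only 2 of the 6, Dpp7 and Mmp2, stayed called without AngII replicate 1, 2 or 3. Of the CAP family of Pi16, Crispld1 rose (1.87-fold, from 0.740 ± 0.157 to 1.37 ± 0.353 CPM, edgeR adjusted p = 0.0449) and Crispld2 fell (0.84-fold), while Glipr1 had a log2 difference of -0.19 that passed by DESeq2 but not by edgeR. Of the sialomucins related to Cd34, Podxl2 rose 1.31-fold and Podxl had a log2 difference of 0.26 that did not pass. Of the peptidases related to Dpp4, the lysosomal Dpp7 rose from 110 ± 7.33 to 151 ± 16.2 CPM (edgeR adjusted p = 0.00210), whereas Fap, the fibroblast activation protein, had a log2 difference of -0.22 and did not pass.

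The lectin Clec11a rose 1.53-fold (edgeR adjusted p = 0.0249) and Clec14a, a relative of Cd248 made by endothelial cells, fell to 0.75-fold (edgeR adjusted p = 0.0120). Cd93 and Thbd, the remaining relatives of Cd248, had log2 differences of -0.20 and -0.023. The actin-capping relative of Gsn, Capg, and the matrix peptidase Mmp2 rose 1.31- and 1.24-fold, and Cav1, a membrane partner of Dpp4, fell to 0.86-fold. Podxl2, Crispld2, Capg, Mmp2 and Cav1 were named after their values were seen. Fbn1 and Fbn2, the fibrillins of the microfibrils that Mfap5 joins, had log2 differences of -0.062 and -0.029, and Itgav and Itgb3, which form an integrin that binds Thy1, had -0.23 and 0.16. None of these passed by edgeR on the 8 libraries. Itgav was called, however, by DESeq2, with either block, with robust estimation and with at least 10 counts in every library, and the fit of all 12 libraries called both integrin genes.

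MOTS-c gave another picture. Compared with AngII alone, 7 of the 9 markers had a lower fitted level, Dpp4 had a higher one and Clec3b differed by under 0.01 on the log2 scale, and none passed the adjusted threshold by edgeR, DESeq2 or limma. In this comparison 0.0069% of all genes tested, a single gene, were called. The AngII libraries are the same that were used when the markers were chosen.

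Cd34 had 19.0, 22.1, 19.2 and 23.5 CPM in the AngII+MOTS-c libraries, and replicates 2 and 4 lay within the AngII range. Its log2 difference from AngII was -0.15 with a standard error of 0.079 (edgeR adjusted p = 0.924), with a 95% interval of the fold from 0.80 to 1.02. Pi16 had 5.33, 5.73, 5.99 and 6.07 CPM, entirely within the AngII range, with a 95% interval of the fold from 0.84 to 1.15.

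Thy1 was lower in every AngII+MOTS-c library, with 95.1, 105, 108 and 95.9 CPM, than in any AngII library. Its log2 difference was -0.18 with a standard error of 0.043, and its edgeR p was 0.000939 before and 0.924 after adjustment over all genes. It was the only one of the 9 with an unadjusted p below 0.05, a share to be read beside 5.05% of all genes, and the only one whose groups did not overlap, as in 1.73% of all genes in this direction. Cd248 had 25.8, 26.2, 26.0 and 31.0 CPM (log2 -0.15, standard error 0.070, edgeR adjusted p = 0.924). Mfap5 had 11.3, 12.1, 13.9 and 11.3 CPM (log2 -0.19, standard error 0.090, edgeR adjusted p = 0.924). For both, part of the MOTS-c libraries lay within the AngII range.

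Dpt had 85.8, 108, 82.9 and 129 CPM with MOTS-c, the widest spread of any marker and group (SD 21.5 CPM). Its log2 difference of -0.16 had a standard error of 0.11, and lay between -0.29 and -0.077 without 1 library. Gsn had 127, 136, 132 and 143 CPM (log2 -0.045). Clec3b had 23.0, 20.8, 26.2 and 25.0 CPM, with a fold of 1.00 and a 95% interval from 0.90 to 1.11. Dpp4 had a higher mean, at 1.16, 1.01, 0.946 and 1.01 CPM, but its interval ran from 0.82- to 1.54-fold. At 26 to 43 counts per library in these 2 groups, a smaller Dpp4 difference was not detectable.

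None of the 27 companions passed with MOTS-c by edgeR, where 3 had an unadjusted p below 0.05, and none by DESeq2 or limma. Of the 29 activated fibroblast genes none passed by edgeR or limma and 3 had an unadjusted p below 0.05 by edgeR. In that fit 5.05% of all genes tested had an unadjusted p below 0.05. With a replicate block 9 of each list had an unadjusted p below 0.05. Of the activated genes, 9 also had one without AngII+MOTS-c replicate 2 and 7 without its replicate 4. The share of all genes under these settings was not computed, so nothing is read from these counts. DESeq2 called 1 of them, Cnn1, with 128 CPM on average against 147 CPM in AngII (log2 -0.19, edgeR adjusted p = 0.690). Scara5 had a log2 difference of -0.0098 and Tcf21 of -0.072. The summed endothelial and macrophage markers of the MOTS-c libraries, 147 to 155 and 302 to 365 CPM, overlapped the AngII range.

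**Figure D3:**
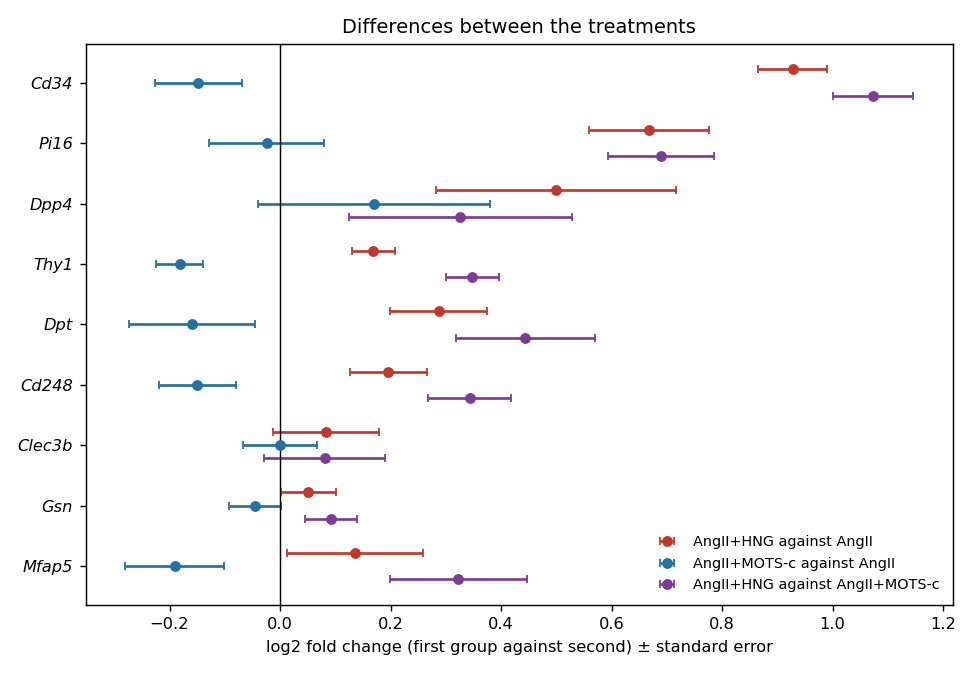
Log2 fold change of the 9 markers (points) with its standard error (bars) for AngII+HNG against AngII (red), AngII+MOTS-c against AngII (blue) and AngII+HNG against AngII+MOTS-c (purple). The largest differences are those of Cd34, 0.93 and 1.07 in the HNG comparisons, and the MOTS-c differences from AngII lie between -0.19 and 0.17.

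Set against each other, the peptide groups differed most for Cd34, at 2.10-fold (log2 1.07, standard error 0.073), which was rank 31 of 14448 genes ordered from the most increased in AngII+HNG. This contrast shares its HNG libraries with the one that chose the genes and is also given as a description. Pi16 was 1.61-fold and Thy1 1.27-fold higher with HNG than with MOTS-c, and like Cd34 neither overlapped between these groups, as in 6.37% of all genes in this direction. Dpt (log2 0.44), Cd248 (0.34), Dpp4 (0.33) and Mfap5 (0.32) were higher on average with overlapping libraries, and Gsn (0.093) and Clec3b (0.080, or -0.0015 without AngII+HNG replicate 3) had the smallest differences. Of the 9, 4 had an adjusted p below 0.05, where 2.64% of all genes tested were called higher, and nothing is read from this count. The HNG dose was 10 μmol/L and the MOTS-c dose 5 μmol/L, so doses were not matched.

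The 9 genes varied together mainly through the group differences. Over the 12 libraries, 33 of the 36 pairs had a positive Pearson correlation of log2 CPM (median 0.44, from -0.083 to 0.89), and all of these values share the same libraries and contain the contrast that chose the genes. After the group means were subtracted, 16 of 36 were positive and the median was -0.049. Cd34 and Pi16 gave 0.89 over the 12 libraries and -0.31 within groups. Cd34 and Thy1 gave 0.83 and 0.053. Cd34, Dpt and Gsn, by contrast, kept high values within groups, 0.73 for Cd34 with Dpt, 0.77 for Cd34 with Gsn and 0.78 for Dpt with Gsn. Thy1 and Mfap5 had 0.65 within groups.

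**Figure D4:**
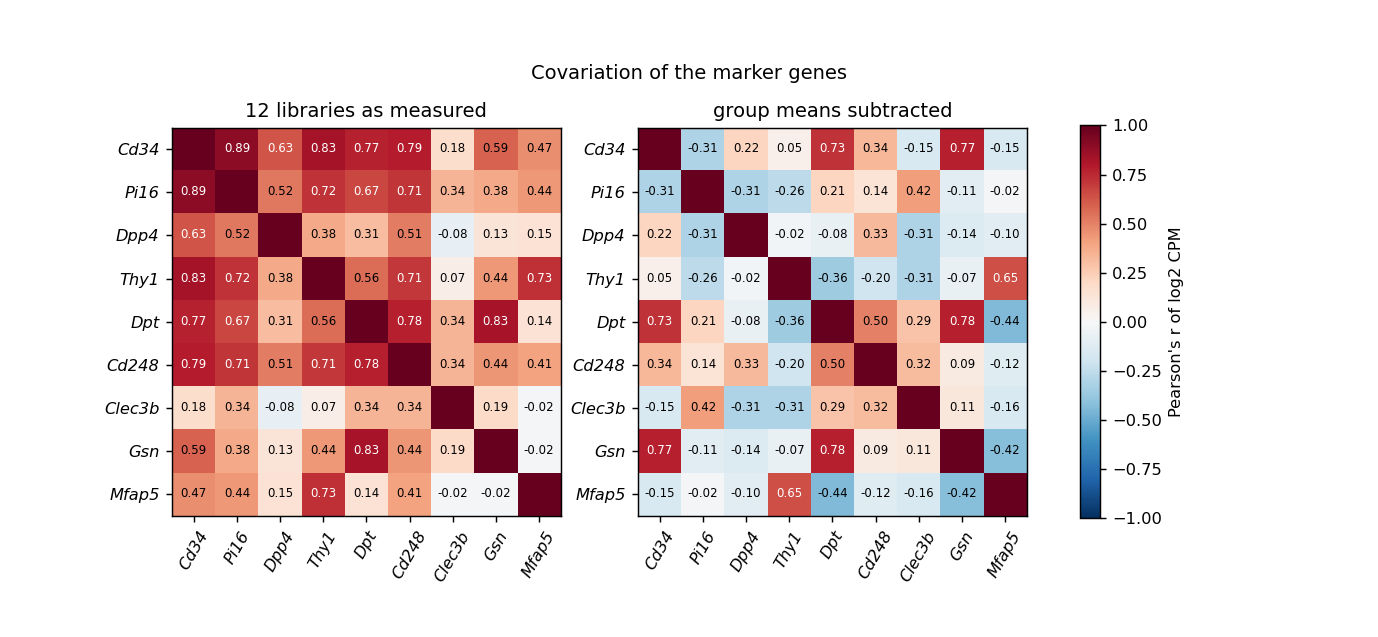
Pearson's r of log2 CPM for each pair of the 9 markers over 12 libraries, as measured (left) and after the mean of each group was subtracted (right), with red for positive and blue for negative values. The left panel is positive for 33 of 36 pairs, and in the right panel the highest values join Cd34, Dpt and Gsn, and Thy1 and Mfap5.

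Replicate 4 was the highest of its group in all 3 groups for Dpt, at 1.21, 1.21 and 1.40 times the mean of replicates 1 to 3 in AngII, AngII+HNG and AngII+MOTS-c, and for Gsn, at 1.12, 1.08 and 1.09 times. For Cd34 the ratios were 1.05, 1.05 and 1.17. Mfap5 went the other way, with ratios of 0.88, 0.68 and 0.91. These ratios describe libraries within each group and do not involve the treatments.

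Within groups, Cd34, Dpt and Gsn varied with the markers of several cell types. The correlation of log2 CPM with the mean of the 12 cardiomyocyte genes after group means were subtracted was 0.89 for Cd34, 0.90 for Dpt and 0.74 for Gsn (n = 12 libraries), against -0.13 for Pi16 and -0.16 for Thy1. With the smooth muscle and pericyte markers the values were 0.74 for Cd34, 0.79 for Dpt and 0.92 for Gsn, and with the fibroblast identity markers 0.67, 0.74 and 0.95. Clec3b followed the macrophage markers, at 0.80, and the endothelial markers, at 0.68. Cd34 had -0.44 with the endothelial markers and -0.34 with the macrophage markers within groups. The part of these cells in the values of the 9 markers was not tested.

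**Figure D5:**
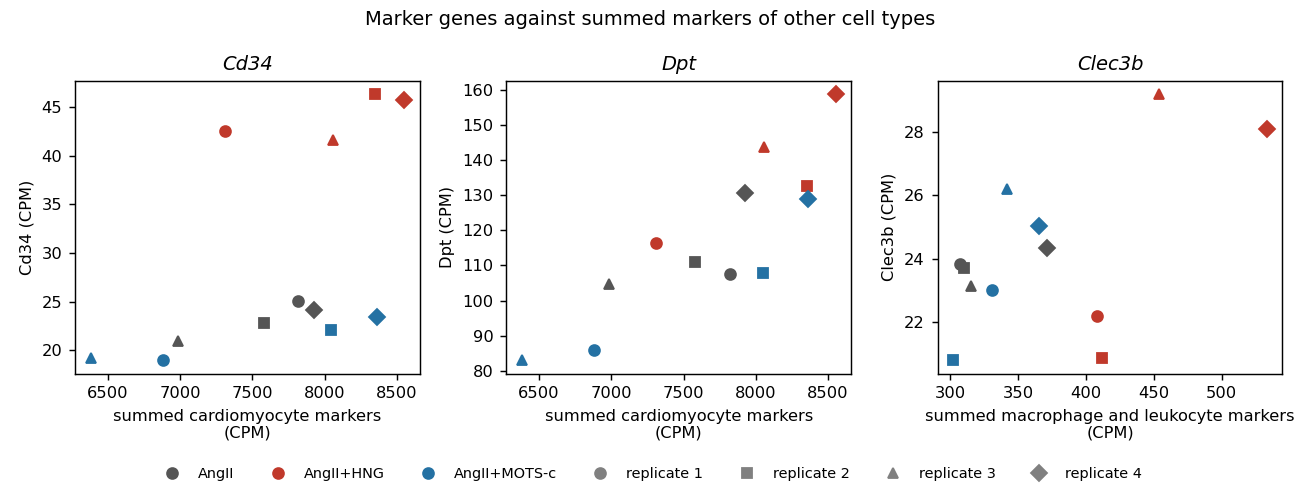
Normalised counts of Cd34, Dpt and Clec3b (vertical axes, CPM) in the 12 libraries against the summed CPM of cardiomyocyte markers (Cd34, Dpt) or macrophage and leukocyte markers (Clec3b), colored by group and shaped by replicate; axes do not start at 0. The cardiomyocyte sums of the groups overlap, and the AngII+HNG libraries lie at 41.6 to 46.3 CPM of Cd34 and the 8 others at 19.0 to 25.0 CPM.

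Among 13442 other named genes, the 5 whose log2 CPM was most like that of Cd34 over the 12 libraries were Glb1l (r = 0.98), Aqp1 (0.98), B3gnt9 (0.98), Adamts5 (0.97) and Akr1c15 (0.97). Their log2 differences with HNG were 0.39, 0.79, 0.26, 0.40 and 0.86, and those with MOTS-c lay between -0.13 and -0.013. Aqp1, the water channel aquaporin, had 96.2 CPM on average in AngII, 166 in AngII+HNG and 87.8 in AngII+MOTS-c. After group means were subtracted another 5 genes came first, Ehd4 (0.97), Ryr2 (0.96), Alpk3 (0.95), Hspb7 (0.94) and Unc45b (0.94). Ryr2, the calcium release channel of heart muscle, and Unc45b, a myosin chaperone, are genes of muscle cells. The log2 differences of these 5 genes with HNG lay between -0.095 and 0.075. The first ranking contains the difference with HNG that chose Cd34 and is no separate result.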

How the data were processed

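RNA of rat atrial fibroblasts was sequenced from mRNA libraries, 12 in all, in 3 groups of 4, grouped by sample title. Per the labels and the submitters' processing notes, the authors used HISAT2, Picard 1.41 and SAMtools 0.1.18; the counter, strand setting and genome build are not given in the sources used here. The authors deposited unnormalized read counts per gene and FPKM values. The 9 markers and all lists were chosen with earlier results of these data known. From the counts, CPM and tests were computed with edgeR 4.0.16 in R 4.3.3 (filterByExpr, TMM, quasi-likelihood test on the 8 libraries of a comparison, Benjamini-Hochberg adjustment over all genes tested, threshold 0.05). Log2 CPM used a prior count of 2. Alternatives used DESeq2 1.42.0 and limma 3.58.1 on log2(FPKM + 1) and log2(FPKM + 0.1), other scalings, filters and blocks, and left out each library. Tests were checked on simulated counts. Genes named were the 9 markers, up to 4 per list with the largest change past the threshold, the 2 first genes of each cell type list and the 5 most like Cd34 by each measure; other genes of the lists were named for their roles after their values were seen. The values of 1 gene that the rule names are not reported here. Replicates 2 and 3 of each group, whose library names share a number, were counted as separate libraries, and summed in 1 alternative.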

Additional observations from a re-analysis of the deposited data

Results flagged for a closer look

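Cd248 in the AngII+MOTS-c group had one library apart from the others. Replicate 4 had 31.0 CPM and the other 3 libraries 25.8 to 26.2 CPM, a gap of 0.913 of the whole range of the group, above Dixon's limit for 4 samples. It was the only one of 27 marker and group combinations beyond the limit, and chance gives about 1 in 20. Without that library the log2 difference of Cd248 between AngII+MOTS-c and AngII was -0.22, against -0.15 with it.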

How the results depend on the processing

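In 19 alternatives per comparison, Cd34 kept its sign, at 0.88 to 0.97 on the log2 scale with HNG, -0.21 to -0.066 with MOTS-c and 1.02 to 1.13 between the peptides. No marker was called with MOTS-c in any of the 19, and there the adjusted p of the 9 ranged from 0.176 to 1. The 3 markers called with HNG became 2 to 5 when a library was left out. Thy1 was lost without AngII replicate 1, 3 or 4 or AngII+HNG replicate 2, and with log2(FPKM + 0.1). Dpt was gained with DESeq2, without AngII replicate 4 or AngII+HNG replicate 1, and without the latter Cd248 as well. Between the peptides, Cd248 was lost with log2(FPKM + 0.1) and with replicates 2 and 3 summed. It was also lost without AngII+HNG replicate 2 or 4 or AngII+MOTS-c replicate 1, 2 or 3. Mfap5 was gained in that comparison without AngII+HNG replicate 4. Dpt was gained there in the fit of all 12 libraries, and without AngII+HNG replicate 1 or AngII+MOTS-c replicate 4. Dpp4, at 0.33, was 0.063 on the log2(FPKM + 1) scale. Genes called with HNG, 869, became 396 with log2(FPKM + 0.1), 577 with replicates 2 and 3 summed and 431 to 932 without one library, the fewest without AngII replicate 1 (431), 2 (485) or 3 (512). Of the lists, companions called higher, 6, became 4 to 9 without one library (4 without AngII replicate 1 or 2), and activated genes called lower, 12, became 5 with log2(FPKM + 0.1). These list counts were added after seeing the data.

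With the replicate number as a block, companions called higher with HNG became 10, and 10 also with the number in the library name. Genes called with MOTS-c became 2 and those between the peptides 1054. Libraries of the same replicate number did not deviate together in every pair. Their correlations were -0.0755 to 0.136 with HNG, 2.56e-05 to 0.119 with MOTS-c and -0.014 to 0.212 between the peptides. Those of replicate 4 were above 0.1 in all 3 comparisons. Replicate 1 of AngII+MOTS-c carries the number 2 in its library name, and replicate 1 of the other groups the number 1. The -0.014 comes from replicate 1, and replicates 2 to 4 gave 0.0846 to 0.212 between the peptides. The libraries were not paired in the main tests, and whether those of the peptide groups are paired was not settled. The block also added Dpt to the markers called with HNG and between the peptides.

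Between AngII+MOTS-c and AngII 1 gene was called. This became 3 with DESeq2, 0 with all 12 libraries in one fit or replicates 2 and 3 summed, and 0 to 3 without one library (3 without AngII+MOTS-c replicate 1). Clec3b, at -1.62e-05, changed sign to 0.000335 with RLE size factors, 0.0149 with the library name number as a block, 0.00495 and 0.00497 with log2(FPKM + 1) and log2(FPKM + 0.1), and lay between -0.0501 and 0.0606 without one library. Pi16, at -0.024, lay between -0.0737 and 0.0469, positive without AngII replicate 3 or AngII+MOTS-c replicate 1. Genes called between the peptides, 637, became 1042 with DESeq2, 975 with all 12 libraries in one fit, 417 and 255 with log2(FPKM + 1) and log2(FPKM + 0.1), and 322 to 625 without one library (416 without AngII+HNG replicate 2; 324, 322 and 389 without AngII+MOTS-c replicate 1, 2 or 3). The cause of these shifts was not tested. Dpp4 had the fewest counts of the markers, 26 to 62 per library.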
